A study of Mus musculus with 13 samples.

Results

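The genes described here are 9 mouse genes whose proteins bind mRNA or poly(A) tails, or make those tails. They were taken by symbol: Dazl, Pabpc1l, Pabpc1, Pum2, Cpeb2, Cpeb3, Cpeb4, Papola and the gene of symplekin. Symplekin was asked for as Symplk, a symbol that the tables do not list, and is listed as Sympk, which was used. All 9 were found among the 18939 genes of the count tables and the 49686 genes of the FPKM table.

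RNA-seq was performed on 13 single oocytes of C57BL/6 females aged 3 to 4 weeks, collected 48 h after PMSG, a gonadotropin that drives follicle growth. Every oocyte carried injected mRNA for FBL–GFP, which marks the nucleolus, and for H2B-mCherry. At the germinal vesicle (GV) stage, oocytes were held for 6 h in 10 µM Cilostamide, an inhibitor of meiotic resumption, and sorted by nucleolar pattern into NSN (non-surrounded nucleolus) and SN (surrounded nucleolus) oocytes. The 4 groups were SN GV (n = 3), NSN GV (n = 3), and oocytes at metaphase of the second meiotic division matured in culture from each type, SN-MII (n = 4) and NSN-MII (n = 3). No label says which female an oocyte came from, so p-values measure the spread between oocytes. The libraries were primed on poly(A) tails, and a change in the amount of an mRNA cannot be told apart from a change in the fraction of it that carries a tail. Levels are also relative to the library total, so that less RNA per oocyte is not seen.

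Fully grown SN oocytes hardly transcribe, whereas the authors saw active synthesis of new RNA in NSN oocytes at GV. Fully grown oocytes store mRNAs with short tails and translate them during maturation as their tails are lengthened. Other mRNAs lose their tails and are degraded. CPEB proteins recognise U-rich elements in 3′ UTRs, DAZL and Pumilio proteins bind their own sites there, poly(A) polymerases add the tail with help from scaffolds such as symplekin, and cytoplasmic poly(A)-binding proteins coat the tail and promote translation.

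The tails in question are added at the 3′ ends of these genes, so the ends of the 4 genes whose levels later separated the stages are shown. Each line gives 30 bases of the 3′ UTR in the last exon, 5′ to 3′ on the gene's strand. Capitals mark the match to a poly(A) signal (AATAAA or ATTAAA) nearest the annotated end. The match starts 23 bases before that end in Dazl, 22 in Pabpc1l, 19 in Cpeb4 and 55 in Pum2. Its use was not tested. Transcripts and coordinates are those of the GENCODE annotation of GRCm38, the assembly also named mm10 to which the authors mapped the reads.
Dazl (chr17:50279408-50279437, minus strand): cctatttccttgtatacacgAATAAAacct
Pabpc1l (chr2:164050497-164050526, plus strand): ctgatcattttgctttatatATTAAAaaat
Pum2 (chr12:8752507-8752536, plus strand): gtgtgaataacattgtatgaAATAAAcctg
Cpeb4 (chr11:31935596-31935625, plus strand): gtaatgtgagatgttgaatgAATAAAactt

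The last 100 bases of the longest annotated 3′ UTR of each gene were searched on the sense strand. AATAAA was found in 7 of the 9 genes and in 66.5% of 16924 genes with such a window. ATTAAA was found in 2 of the 9, Pabpc1l and Cpeb4, and in 21.2% of all. The cytoplasmic polyadenylation elements TTTTAT and TTTTAAT, which CPEB1 binds, were in none of the 9 and in 14.1% and 5.02% of all genes. The Pumilio site TGTANATA was in none of the 9 (4.47% of all), and the DAZL site TTGTT in 1, Cpeb2 (22.8% of all). Windows were counted once per motif, and matches may overlap. The files do not say which 3′ end an oocyte uses. The other genes lie at chr15:36595661-36609668 (Pabpc1, minus strand), chr5:43233170-43289724 (Cpeb2, plus), chr19:37021291-37208601 (Cpeb3, minus), chr12:105784694-105838944 (Papola, plus) and chr7:19024377-19054618 (Sympk, plus). The 3′ UTRs were 1854 bases long in Dazl, 499 in Pabpc1l, 439 in Pabpc1, 2861 in Pum2, 3778 in Cpeb2, 3569 in Cpeb3, 4102 in Cpeb4, 1947 in Papola and 100 in Sympk.

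The proteins fall into families. Translated from the same annotation, CPEB2, CPEB3 and CPEB4 hold 1022, 716 and 729 residues. Over their last 200 residues, which lie in the RNA-binding part of the proteins, these 3 proteins were 95.0% to 96.5% identical in pairs. CPEB1, the founding member of the family in oocytes, was 45.4% to 45.9% identical to each of them over the aligned part of that stretch. PABPC1L, the embryonic poly(A)-binding protein (607 residues), and PABPC1, the cytoplasmic poly(A)-binding protein of most cells (636 residues), were 65.8% identical over 596 aligned residues.

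Levels between genes were compared in FPKM, which is scaled by transcript length and library size. Dazl was the highest of the 9 in every group, with a mean of 447 ± 21 FPKM (SD, n = 3) in SN GV and 965 ± 90.5 (n = 4) in SN-MII oocytes. Its rank among the 49686 genes listed was 233 in SN GV and 230 in NSN GV oocytes, and 69 in SN-MII and 74 in NSN-MII oocytes. Pabpc1l came next at GV, at 207 ± 19.3 FPKM in SN and 255 ± 23.6 in NSN oocytes (n = 3 each), ahead of Papola at 131 ± 9.05 and 120 ± 11.6. At MII this order was the other way round: Papola stood at 184 ± 61.4 FPKM in SN-MII and 124 ± 28.5 in NSN-MII oocytes, and Pabpc1l at 67.8 ± 16.5 and 26.9 ± 17.0. Pum2, Sympk, Cpeb4 and Pabpc1 had group means between 2.96 and 48 FPKM, and Cpeb3 and Cpeb2 between 0.0225 and 1.33.

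**Figure D1:**
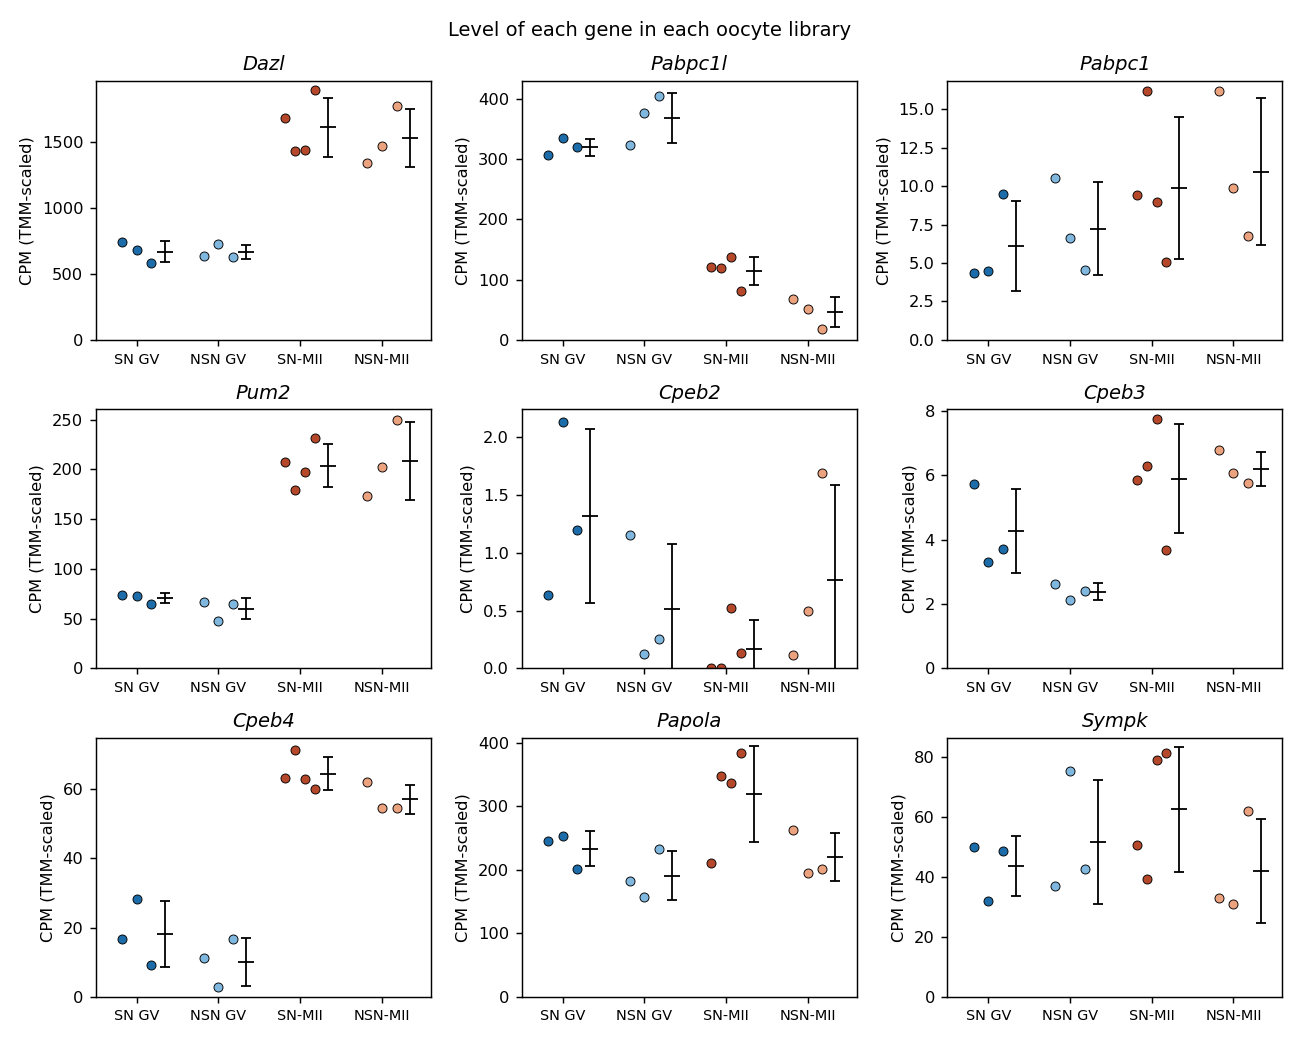
Level of each gene in the 13 oocyte libraries, in counts per 1000000 (CPM, scaled by TMM, each axis starting at 0), by group. Points are single oocytes and the bars beside them the mean and SD. Dazl, Pum2 and Cpeb4 lay higher in all 7 MII than in all 6 GV oocytes, Pabpc1l lay lower, and the stages overlapped for the other 5 genes.

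Total counts were 7140416 to 8846287 per library. GV libraries held 12699 to 13342 genes with a count and MII libraries 11593 to 12522. The 10 highest genes took 5.47% to 6.60% of the counts at GV and 8.92% to 12.1% at MII. Of 12 oocyte markers, 11 exceeded 10 CPM in all libraries. Of 16 markers of cumulus and granulosa cells, which surround the oocyte, Foxl2, Lhcgr and Ptx3 were at 0 in all libraries, and the sum of the list was 58.2 to 86.4 CPM in SN GV, 61.7 to 72.6 in NSN GV, 92.0 to 126 in SN-MII and 86.6 to 176 in NSN-MII oocytes. Cyp19a1 was the highest of them (at most 158 CPM). This sum, the number of genes and the share of the highest genes moved with the stage, and their part in the differences below was not tested.

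The first comparison asked how the 9 genes differed between GV and MII oocytes. Of 11375 genes tested with edgeR's quasi-likelihood test over all 13 libraries, 68.6% were called at an adjusted p under 0.05, 31.7% higher and 36.9% lower at MII. Of the 9 genes, 5 were called, 4 of them higher (Dazl, Pum2, Cpeb4 and Cpeb3) and 1 lower (Pabpc1l). The stages did not overlap in CPM for 4 of the 9, against 47.4% of all genes tested. The median log2 fold change was 0.65 over the 9 and -0.10 over all genes tested. With library totals in place of TMM factors the median of all genes moved by a further -0.29.

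Dazl encodes a germ cell RNA-binding protein that drives translation of its target mRNAs in maturing oocytes. It measured 740, 681 and 583 CPM in SN GV oocytes 1 to 3 and 637, 726 and 627 CPM in NSN GV oocytes 1 to 3. In SN-MII oocytes 1 to 4 it measured 1681, 1431, 1435 and 1894 CPM, and in NSN-MII oocytes 1342, 1469 and 1770 CPM. The lowest MII oocyte thus stood well above the highest GV oocyte, and within each stage the types overlapped. On the log2 scale Dazl rose by 1.24 ± 0.13 (SE), 2.36-fold, with an adjusted p of 3.63e-07 by edgeR, and 14.9% of genes had a larger log2 fold change. It was 1.27 ± 0.18 from SN GV to SN-MII and 1.2 ± 0.19 from NSN GV to NSN-MII oocytes.

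Pum2 encodes a Pumilio protein, which binds 3′ UTRs and is best known for repressing the mRNAs it binds. It measured 74.0, 73.1 and 64.4 CPM in SN GV and 67.0, 47.7 and 65.0 CPM in NSN GV oocytes. In SN-MII oocytes it measured 207, 179, 197 and 231 CPM, and in NSN-MII oocytes 173, 202 and 250 CPM. All MII values lay above all GV values, and NSN GV oocyte 2 was the lowest of all. Its change was 1.66 ± 0.15 on the log2 scale (adjusted p = 4.49e-08, edgeR), or 3.17-fold, and 4.1% of genes tested had a larger one.

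Cpeb4 encodes a CPEB protein that sustains cytoplasmic polyadenylation late in meiosis. It measured 16.7, 28.3 and 9.22 CPM in SN GV and 11.1, 2.75 and 16.6 CPM in NSN GV oocytes. In SN-MII oocytes the values were 63.3, 71.3, 63.0 and 60.1 CPM, and in NSN-MII oocytes 61.9, 54.6 and 54.5 CPM. The MII oocytes were close to each other and all higher than any GV oocyte, whereas GV oocytes were spread between 22 counts in NSN GV oocyte 2 and 239 counts in SN GV oocyte 2. The log2 fold change was 2.16 ± 0.32 (adjusted p = 1.59e-05, edgeR), or 4.47-fold, and 0.782% of genes tested had a larger one.

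Cpeb3 and Cpeb2 were low. Cpeb3 had 17 to 45 counts in GV and 27 to 59 in MII oocytes, or 2.12 to 5.74 CPM at GV (median 2.97) and 3.68 to 7.76 CPM at MII (median 6.06). Its log2 fold change was 0.92 ± 0.32 (adjusted p = 0.017, edgeR), but the stages overlapped, since SN GV oocyte 1 exceeded SN-MII oocyte 4. The call was lost with library totals in place of TMM factors (adjusted p = 0.0945) and with limma on FPKM (0.236 to 0.246). Cpeb2 had 1 to 18 counts in GV oocytes and 0 to 10 in MII oocytes, with 0, 0, 4 and 1 counts in the SN-MII oocytes. Its log2 fold change of -1.19 ± 0.86 was not called (adjusted p = 0.227, edgeR). It was -2.89 ± 1.22 among SN and 0.50 ± 1.23 among NSN oocytes, and both rest on these few counts.

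Within the CPEB family, Cpeb1 was by far the most abundant gene. Its share of the summed FPKM of Cpeb1 to Cpeb4 was 97.8% to 99.6% in the GV and 94.8% to 97.4% in the MII oocytes, and its own log2 fold change of 0.20 ± 0.15 was not called (adjusted p = 0.235, edgeR). The share of Cpeb4 was 0.252% to 1.84% at GV and 2.33% to 4.70% at MII. The shares of Cpeb4 did not overlap between stages. The FPKM ratio of Cpeb1 to Cpeb4 had a median of 107 at GV and 29.7 at MII, and was highest, at 395, in NSN GV oocyte 2.

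Pabpc1l, the poly(A)-binding protein gene of oocytes and early embryos, which female mice need for oocyte maturation, was the gene that fell. It measured 306, 335 and 320 CPM in SN GV and 324, 377 and 406 CPM in NSN GV oocytes. In SN-MII oocytes it measured 121, 119, 137 and 81.1 CPM, and in NSN-MII oocytes 68.5, 50.5 and 18.7 CPM. The highest MII oocyte was far below the lowest GV oocyte, and the NSN-MII oocytes were the lowest of all. Its log2 fold change was -2.24 ± 0.23 (adjusted p = 2.4e-07, edgeR), or 4.73-fold lower, and 18.5% of genes tested had a lower one. It was -1.48 ± 0.30 among SN and -3.00 ± 0.35 among NSN oocytes.

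Pabpc1, by contrast, was low in all oocytes. It had 34 to 100 counts in GV and 37 to 136 in MII oocytes, or 4.34 to 10.5 CPM at GV (median 5.59) and 5.04 to 16.2 CPM at MII (median 9.42). The log2 fold change of 0.65 ± 0.35 was not called (adjusted p = 0.107, edgeR), and was called without SN GV oocyte 3 (0.88, adjusted p = 0.0444). Pabpc1 has processed copies elsewhere in the genome with which reads may be shared, so its level is uncertain. Its expected counts were whole numbers except in SN GV oocyte 3 (78.96) and NSN GV oocyte 2 (52.95). Taken per library, the FPKM ratio of Pabpc1l to Pabpc1 was 69.0, 51.5 and 31.3 in SN GV and 38.4, 46.9 and 106 in NSN GV oocytes. It was 21.1, 7.41, 18.6 and 20.8 in SN-MII and 4.29, 4.06 and 2.92 in NSN-MII oocytes. Pabpc1l was thus the higher of the pair in all 13 oocytes, and the ratio in MII oocytes stayed below that in any GV oocyte.

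**Figure D2:**
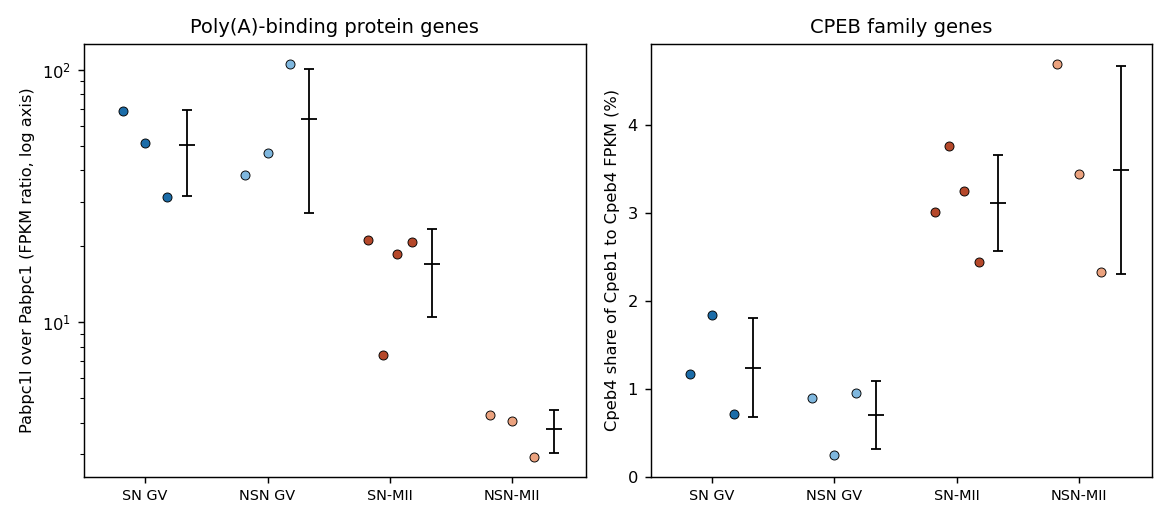
FPKM ratio of Pabpc1l to Pabpc1 (left, log axis) and share of Cpeb4 in the summed FPKM of Cpeb1 to Cpeb4 in percent (right, from 0), by group. Points are single oocytes and the bars beside them the mean and SD. The ratio was 31.3 to 106 at GV and 2.92 to 21.1 at MII, and the Cpeb4 share 0.252% to 1.84% at GV and 2.33% to 4.70% at MII.

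Among the genes taken by symbol, Papola and Sympk differed least between GV and MII oocytes. This does not extend to other genes of tail synthesis, most of which were called between stages, as described below. Papola encodes the canonical nuclear poly(A) polymerase. It measured 245, 254 and 202 CPM in SN GV, 182, 157 and 233 in NSN GV, 211, 347, 337 and 384 in SN-MII and 263, 195 and 201 CPM in NSN-MII oocytes. SN-MII oocytes 2 to 4 were the 3 highest, 3 of the other 4 MII oocytes lay within the GV range, and NSN-MII oocyte 1 lay just above it. The log2 fold change of 0.33 ± 0.16 was not called (adjusted p = 0.0818, edgeR). It was called without NSN GV oocyte 3 (0.42, adjusted p = 0.0356) or without SN-MII oocyte 1 (0.41, adjusted p = 0.0239).

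Sympk encodes symplekin, a scaffold of the nuclear 3′ end processing complex that also joins CPEB1 in cytoplasmic polyadenylation. It ranged from 32.1 to 75.3 CPM at GV (median 45.7) and from 30.9 to 81.5 CPM at MII (median 50.7). The log2 fold change was 0.11 ± 0.25 (adjusted p = 0.703, edgeR), and its sign turned with library totals in place of TMM factors (-0.21). The stages overlapped over nearly their whole range. The expected counts of Sympk, 250.49 to 603.31, were not whole numbers in any oocyte, so part of its reads was shared out.

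**Figure D3:**
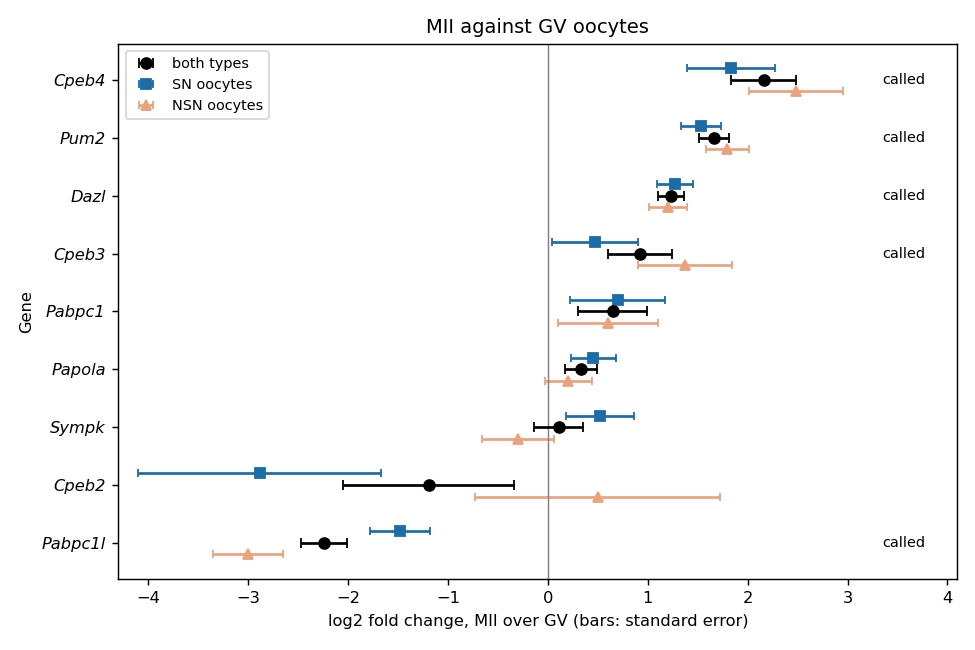
Log2 fold change of each gene from GV to MII oocytes with its standard error, over both types (black circles) and within SN (squares) and NSN oocytes (triangles). Genes called at an adjusted p under 0.05 over both types are marked. Cpeb4 (2.16), Pum2 (1.66) and Dazl (1.24) lay highest and Pabpc1l (-2.24) lowest.

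Related genes in 4 lists were described alongside, with no test of any list. Of 25 tested genes of other poly(A) polymerases and 3′ end processing, 11 were higher at MII, 9 were lower and 5 were not called, with a median log2 fold change of 0.51. Cpsf2 (1.60 ± 0.15), Pabpn1 (1.51 ± 0.32) and Tent4a (1.41 ± 0.17), of which the last encodes a noncanonical poly(A) polymerase, were among those that rose. Cpsf4 (-2.54 ± 0.39) and Nudt21 (-2.27 ± 0.35), subunits of the nuclear cleavage complexes, and Papolg (-2.09 ± 0.26), a paralog of Papola, were among those that fell. The balance of this list depended on the scaling: with library totals, 5 were higher and 10 lower.

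Of 16 tested genes of other poly(A)-binding proteins and their partners, 7 were higher and 4 lower at MII (median 0.30), and 5 of each direction with library totals. Larp4 (1.85 ± 0.19) and Larp4b (1.68 ± 0.20), which encode proteins that bind PABP and stabilise mRNA, and Eif4g2 (1.55 ± 0.18) rose. Paip2, which encodes an inhibitor of poly(A)-binding protein, fell by 4.85 on the log2 scale (SE 0.21, adjusted p = 2.29e-11, edgeR), and Gspt2, a translation release factor gene, changed by -1.15 ± 0.19. Of 8 tested genes of other CPEB, Pumilio, DAZ and Musashi families and their cofactors, 2 were higher, among them Dazap2 (1.5 ± 0.17). The 1 lower gene, Aurka (-0.99 ± 0.18), encodes a kinase and is named because the count is small.

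Of 19 dormant mRNAs known to be translated on maturation, 16 were higher at MII, 1 was lower and 2 were not called. Of all genes tested, 31.7% were higher and 36.9% lower. The median log2 fold change of the list was 1.01, against -0.10 over all genes. In these libraries a larger amount of such an mRNA cannot be told apart from a larger fraction carrying a tail. Dcp1a (2.04 ± 0.24), a decapping gene, Cnot7 (1.77 ± 0.19), a deadenylase gene, and Il7 (1.74 ± 0.13) rose most, and Ccno (-2.64 ± 0.14) fell. With library totals, 15 were higher and 1 was lower. All named genes of the 4 lists were called with an adjusted p of at most 0.000435 by edgeR.

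**Figure D4:**
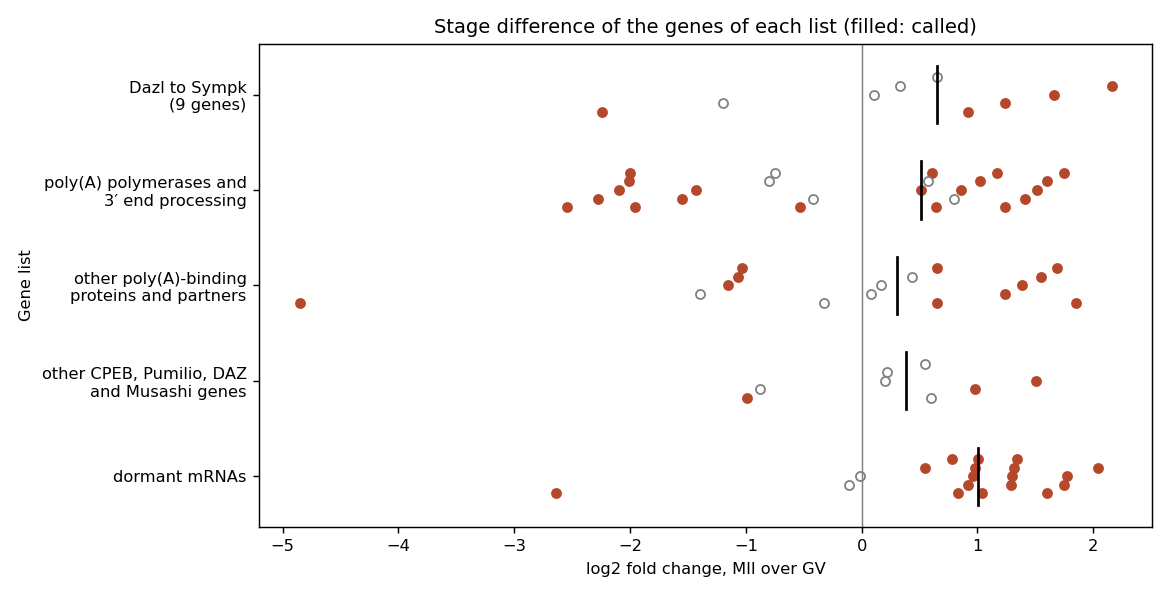
Log2 fold change from GV to MII oocytes of the 9 genes and of the tested genes of 4 related lists. Each point is a gene, filled points were called at an adjusted p under 0.05, and the vertical bar is the median of the row. The median was 0.65 for the 9 genes, 0.51, 0.30 and 0.38 for the first 3 lists and 1.01 for the dormant mRNAs.

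The second comparison asked whether the 9 genes differed between NSN and SN oocytes at GV. All 9 were tested and none was called. Of 10839 genes tested, 0% were called by edgeR. The unadjusted p was under 0.05 for 190 genes. Every one of the 9 had an adjusted p of 1. The largest differences were those of the 3 CPEB genes, with log2 fold changes (NSN over SN) of -1.24 ± 0.95 for Cpeb2, -0.80 ± 0.50 for Cpeb3 and -0.79 ± 0.62 for Cpeb4. Cpeb3 was the one gene of the 9 whose types did not overlap, at 5.74, 3.31 and 3.71 CPM in SN and 2.63, 2.12 and 2.40 CPM in NSN GV oocytes, which held for 6.03% of all genes tested. These values rest on 17 to 45 counts per oocyte.

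The remaining genes were close between the types at GV. Dazl differed by 0.01 ± 0.15, Pabpc1l by 0.22 ± 0.15, Pum2 by -0.21 ± 0.22, Papola by -0.27 ± 0.19, Sympk by 0.25 ± 0.30 and Pabpc1 by 0.28 ± 0.52 on the log2 scale. The standard error was thus more than 3 times as large for Pabpc1 as for Dazl. None of the related lists had a called gene, and their lowest unadjusted p-values were 0.0726 for Cstf2t, 0.091 for Tex19.1 and 0.092 for Paip1 (adjusted p = 1 for each, edgeR).

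The third comparison asked the same of MII oocytes matured from NSN and SN oocytes. Of 10028 genes tested, 0.259% were called by edgeR (26 genes, 1 higher and 25 lower in NSN-MII), while 941 passed 0.05 before adjustment. Of the 9 genes, 8 were tested, Cpeb2 being too low, and none was called. The count of called genes rested on single oocytes: it was 233 without NSN-MII oocyte 3, the library with the fewest genes detected, and 2 to 9 without SN-MII oocytes 2, 3 or 4 or NSN-MII oocytes 1 or 2.

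Pabpc1l had the largest difference of the 8. The 3 NSN-MII oocytes (18.7 to 68.5 CPM) were all lower than the 4 SN-MII oocytes (81.1 to 137 CPM). The types did not overlap, in either direction, for 10.2% of all genes tested. The log2 fold change, NSN over SN, was -1.31 ± 0.36, 2.48-fold lower, with an unadjusted p of 0.00387 and an adjusted p of 0.205 by edgeR. The DESeq2 test called it (-1.32, adjusted p = 0.0145). Without NSN-MII oocyte 3, which had the lowest level, the difference was -0.94 (adjusted p = 0.0572, edgeR), and without each of the other oocytes the adjusted p was 0.204 to 0.467. At GV the types stood the other way, with the NSN mean at 369 ± 41.3 and the SN mean at 320 ± 14.2 CPM (n = 3 each), a difference not beyond their spread.

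The difference between these contrasts was itself tested as an interaction over all 13 libraries, in which 0.0176% of 11375 genes (2 genes) were called. The unadjusted p was under 0.05 for 606 genes. None of the 9 was called. For Pabpc1l the interaction was -1.52 ± 0.45 on the log2 scale (unadjusted p = 0.00353, adjusted p = 0.514, edgeR). The stage difference of Pabpc1l was thus not shown to differ between NSN and SN oocytes. GV and MII libraries came from different oocytes, and MII oocytes are those that completed maturation. The authors found that NSN oocytes extruded the first polar body less often. The part of this selection in the values was not tested. Cpeb2 had an interaction of 3.38 ± 1.73 (adjusted p = 0.984, edgeR), which rests on 18 counts or fewer per oocyte.

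Papola and Sympk were next at MII, at -0.54 ± 0.21 (unadjusted p = 0.0266, adjusted p = 0.423) and -0.59 ± 0.31 (unadjusted p = 0.0851, adjusted p = 0.618, edgeR). In both the types overlapped. Dazl (-0.08 ± 0.15), Pum2 (0.03 ± 0.17), Cpeb4 (-0.18 ± 0.18), Cpeb3 (0.07 ± 0.41) and Pabpc1 (0.15 ± 0.44) differed by less than 0.2 on the log2 scale. The order of the group means of Dazl, Pum2 and Cpeb4 therefore followed the stage, and neighbours of 1 stage were not separated.

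**Figure D5:**
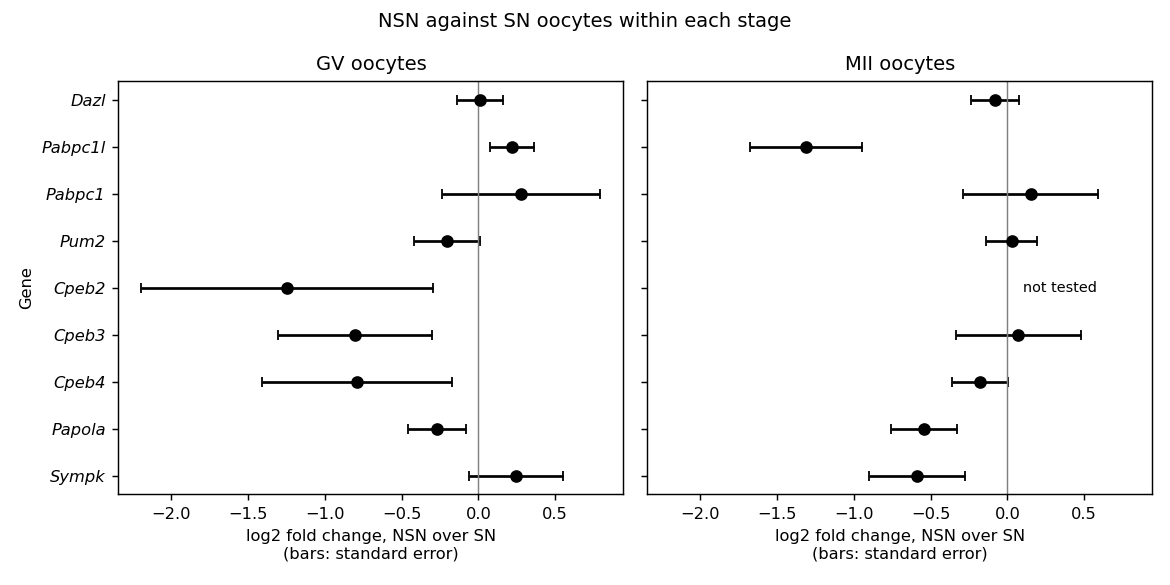
Log2 fold change of NSN over SN oocytes with its standard error for each gene, at GV (left) and at MII (right). Cpeb2 was not tested at MII. Pabpc1l stood at 0.22 at GV and at -1.31 at MII, and no gene was called in either panel.

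None of the genes of the related lists was called between NSN-MII and SN-MII oocytes. In the order of the unadjusted p, the first was Pabpn1l, another poly(A)-binding protein gene of oocytes, at -1.81 ± 0.43 (unadjusted p = 0.0012, adjusted p = 0.125, edgeR). Ddx4, a germ cell RNA helicase gene, followed in the other direction at 1.18 ± 0.28 (unadjusted p = 0.00131, adjusted p = 0.132, edgeR). Paip2 was at -1.40 ± 0.34 and Plat, a classic dormant mRNA, at -0.86 ± 0.21 (adjusted p = 0.132 and 0.147, edgeR). Tent5c was at -0.84 ± 0.22, Cpsf7 at 2.24 ± 0.88, Msi2 at 0.82 ± 0.48 and Cpeb1 at -0.39 ± 0.17 (adjusted p = 0.18, 0.422, 0.66 and 0.484, edgeR). Cpsf7 was low, at 0.136 to 1.46 CPM in SN-MII and 0.507 to 7.42 CPM in NSN-MII oocytes, and its types overlapped.

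The genes most like each of the 9 in log2 CPM over the 13 libraries were named by Pearson's r, as a description: the libraries fall into stages, so r mostly reflects the stage. Dazl was most like Idi1, Slc43a3 and Ccdc117 (r = 0.992 to 0.994), Pum2 like Lin7c, Nadk and Pacsin2 (0.992 to 0.995), and Cpeb4 like Slc23a2, Ireb2 and Kalrn (0.986 to 0.988). Pabpc1l was most like Cdc25b, Slc35c2 and Lrrc41 (0.978 to 0.981). For the genes whose stages overlapped, r was lower: Papola with Gcnt4, Tbc1d14 and Dnajc10 (0.897 to 0.942), Sympk with Dct, Harbi1 and Ptk2 (0.902 to 0.926), Pabpc1 with Strn3, Cbll1 and Abce1 (0.891 to 0.910), Cpeb3 with Slmap, Zfp943 and Rev3l (0.889 to 0.904) and Cpeb2 with Pudp, Gas2l1 and Cd244a (0.816 to 0.858).

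The ratio of count to FPKM of a gene follows the length of the transcripts that RSEM assigned. Over the 13 libraries this ratio, relative to the median gene of each library, ranged over 0.11 on the log2 scale for Dazl, 0.39 for Pabpc1l, 0.36 for Sympk, 0.52 for Pum2, 0.55 for Cpeb4 and 0.64 for Papola. It ranged over 1.14 for Cpeb3 and 1.23 for Pabpc1, more than for 84.2% and 86.2% of 9106 genes. For these low genes a difference in FPKM can therefore depart from one in CPM.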

How the data were processed

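Reads had been trimmed, mapped to mm10 and summarised per gene by the authors; the submitters' processing notes name Trim Galore 0.4.4, Bowtie2 2.3.5, RSEM 1.2.28 and DESeq2 1.20.0. The deposited expected counts stand in a table for each stage, with reads of several genes shared out, and the deposited FPKM values in 1 further table. Groups came from the sample labels. All pairs of libraries differed beyond sampling noise.

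The 9 genes, lists and tests were chosen with earlier results of these data known. Counts were rounded, filtered with filterByExpr, scaled by TMM over the libraries of each fit and tested with edgeR 4.0.16 (R 4.3.3) by the quasi-likelihood test with Benjamini-Hochberg adjustment over all genes tested; the SE is the log2 fold change divided by the root of F. The CPM printed used TMM factors of all 13 libraries. With 3 or 4 oocytes per group, spread between oocytes (biological coefficient of variation 0.344 to 0.364) exceeded counting error of all but low genes. DESeq2 1.42.0, limma 3.58.1 on log2(FPKM + 1) and on log2(FPKM + 0.1), other scalings, no filter, a replicate block and leaving out each library were alternatives. On simulated data with 200 changed genes the test called 75 of 98 genes changed 4-fold and 39 of 96 changed 2-fold between stages. For NSN against SN it called 69 of 104 and 16 of 92 at MII, and 72 of 119 and 10 of 79 at GV. In the interaction it called 39 of 96 and 3 of 99. Most 2-fold differences would thus be missed in these comparisons. The real stage comparison called 7800 genes, far more than 200, so the simulated rates need not hold for it. Protein identities are from global alignments (Biopython 1.88) of the longest annotated protein. Named genes were the 9; of each list, the 3 called genes that rose most and the 3 that fell most with stages not overlapping, and for NSN against SN the 2 with the lowest p; and the 3 genes of most like pattern. Reads, alignments, imaging and protein data were not analysed here. Of the genes this rule names, 1 is not reported here.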

Additional observations from a re-analysis of the deposited data

Results flagged for a closer look

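Of 27 checks of the 9 genes for an oocyte that stands apart from the others of its stage or group in CPM, 2 met the limit, where chance gives about 1 in 20. Pum2 measured 47.7 CPM in NSN GV oocyte 2, below the other 5 GV oocytes, of which the nearest was at 64.4 CPM. The same oocyte was the lowest of the GV oocytes for Cpeb2, Cpeb3, Cpeb4 and Papola and the highest for Sympk (75.3 CPM), and it had the fewest genes detected of them and the highest sum of oocyte markers (34474 CPM). Cpeb2 measured 1.69 CPM in NSN-MII oocyte 3, on 10 counts, above the other 6 MII oocytes, of which the next was at 0.526 CPM on 4 counts. The part of these libraries' depth and makeup in the values was not tested.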

How the results depend on the processing

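Dazl, Pabpc1l, Pum2 and Cpeb4 kept direction and call between GV and MII in all 21 alternatives, with log2 fold changes of 0.93 to 1.28, -2.56 to -2.07, 1.35 to 1.71 and 1.73 to 2.43. The members called there were 4 or 5 in the alternatives other than leaving out a library. Between NSN-MII and SN-MII, 26 genes were called, but 218 by DESeq2 (with 1 of the 9, Pabpc1l), 16 with library totals, 89 without a filter, 2 with the replicate block, 9, 6 and 3 by limma (pseudocount 1, pseudocount 0.1, no filter), 69 with all 13 libraries in 1 fit and 2 to 233 leaving out an oocyte. For the interaction, 2 genes were called, but 46 by DESeq2, 6 without a filter, 1 by limma without a filter and 0 to 12 leaving out an oocyte (12 without NSN-MII oocyte 3). The cause was not tested.

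Signs turned only for small differences. Between stages, Sympk was at -0.21 with library totals, -0.028 with the replicate block, -0.022 and -0.027 by limma with pseudocounts 1 and 0.1, and -0.10 to 0.30 leaving out an oocyte. Leaving out an oocyte gave at GV (NSN over SN) -0.0596 to 0.0826 for Dazl (-0.0101 with all 13 libraries), -0.17 to 0.78 for Pabpc1 and -0.10 to 0.40 for Sympk. At MII it gave -0.11 to 0.14 for Pum2, -0.19 to 0.0018 for Dazl, -0.25 to 0.50 for Pabpc1 and -0.10 to 0.23 for Cpeb3. There the replicate block gave -0.12 for Pabpc1 and -0.0941 for Cpeb3, and limma -0.0166 for Cpeb3 with pseudocount 1, filtered or not. In the interaction, Dazl was at 0.0223 with the block and -0.19 to 0.0269 leaving out an oocyte, and Pabpc1 at 0.41 and 0.50 by limma with pseudocounts 1 and 0.1 and -0.56 to 0.28 leaving out an oocyte.

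Within a stage, same-numbered oocytes did not deviate together (r = -0.42 to -0.15 at GV and -0.10 to 0.08 at MII). There, 0 of 6 GV and 2 of 6 MII oocytes correlated best with their own number. Between stages, r was -0.03 to 0.04 for same-numbered SN oocytes and 0.03 to 0.21 for NSN oocytes. The number was therefore not used as a pairing in the main tests. Where leaving out an oocyte left 2 in a group, the spread was pooled over all groups. Depth limits the precision of Cpeb2, Cpeb3 and Pabpc1, which had at most 136 counts per oocyte.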
